A study of Mus musculus with 9 samples.

Results

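The genes described here are the replication-dependent histone genes of the mouse, taken as every gene of the deposited table whose symbol starts with Hist1h, Hist2h, Hist3h or Hist4h. There are 69 of them among 54146 genes, namely 6 for the linker histone H1, 19 for H2A, 19 for H2B, 12 for H3 and 13 for H4. Among them, Hist1h2aj (H2A) and Hist3h2bb-ps (H2B) are annotated as pseudogenes. RNA-seq was performed on colonic mucosa of 9 C57BL/6J mice at 15 wk of age, to compare ApcMin/+ with ApcMin/+; p16cis/cis. The former were 5 mice, of which 2 were female and 3 male, and the latter, called p16cis/cis mice below, were 4, of which 3 were female and 1 male. Both groups carry a heterozygous germline mutation of the tumor suppressor Apc. In the p16cis/cis mice a short DNA element that promotes spread of DNA methylation is knocked in at the p16 promoter, on both alleles and in every cell. Each mouse is 1 replicate. The tissue is given here as in the sample labels, whereas the paper's methods name colonic crypts as the source of the RNA.

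Replication-dependent histone genes supply the core histones and H1 that package newly copied DNA, and they are transcribed in S phase under NPAT, which is driven by cyclin E and CDK2. Their mRNAs typically have no intron and no long poly(A) tail: the 3′ end is cut just past a short stem-loop, which the protein SLBP binds. In differentiated cells some of these genes are instead read through to a poly(A) signal further downstream. The libraries were made from 1 μg of total RNA with rRNA depletion and oligo dT selection, so histone RNA without a poly(A) tail may be under-represented.

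A stem-loop was searched in 1 annotated transcript of each gene (GENCODE M21, GRCm38) as 6 paired bases that start with GG and otherwise hold pyrimidines on the 5′ side, a loop of 4 bases, and the reverse complement of the first 6 bases. It was found past the stop codon in 45 of the 67 protein-coding members, at 21 to 58 bases from the stop codon. Over other protein-coding genes, the longest transcript held such a match anywhere in 0.728% of 21834 genes. The stem differed by histone type. All 33 matches in H1, H2A, H2B and H3 genes had the 5′ stem GGCTCT, whereas 10 of the 12 in H4 genes had GGCCCT and the other two had GGTCCT. The following sites of well expressed or variant members show this, each with 5 flanking bases and with the stem-loop in capitals.
Hist1h1c, chr13:23739507-23739532, plus strand: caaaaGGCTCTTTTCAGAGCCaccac
Hist3h2a, chr11:58955167-58955192, plus strand: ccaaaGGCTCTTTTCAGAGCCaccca
Hist1h3d, chr13:23576239-23576264, plus strand: ccaaaGGCTCTTTTCAGAGCCacccc
Hist1h3g, chr13:23535884-23535909, plus strand: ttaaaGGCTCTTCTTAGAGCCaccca
Hist1h4h, chr13:23531453-23531478, plus strand: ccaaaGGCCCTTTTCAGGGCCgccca
Hist1h4i, chr13:22040961-22040986, minus strand: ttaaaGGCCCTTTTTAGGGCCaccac
Hist1h4j, chr13:21735432-21735457, plus strand: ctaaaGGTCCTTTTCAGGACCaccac

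The annotated transcripts fell into groups by how far they run past this site, with no gene between 185 and 330 bases. In 18 members the transcript continued for 330 bases or more beyond the stem-loop, and in 27 it ended within 185 bases of it. In 22 protein-coding members no stem-loop was found in the annotated transcript. Of these 22, Hist1h2bc, Hist1h2bq, Hist1h2br and Hist2h2be had 250 bases or more after the stop codon and 18 had fewer. Most of the 18 models ended 0 to 2 bases past the stop codon, so that the search could not find a site there. These 18 genes were kept together with 2 members that have no annotated coding sequence, the pseudogenes Hist1h2aj and Hist3h2bb-ps. The 22 genes with a long annotated 3′ end, with or without the stem-loop, took 98.1% of the summed normalized counts of all members, against 1.48% for the 27 with a short end and 0.414% for the remaining 20. Of the 17 members that passed the filter on low values, 14 had a long end, 3 a short end, and 0 belonged to the remaining group. Per kb of annotated exons, which takes out the longer models, the median level was 10.5 normalized counts for long ends, 3.70 for short ends and 1.58 for the others. A longer model can also collect reads that a short model leaves uncounted, and which of the transcripts were polyadenylated was not tested.

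**Figure D1:**
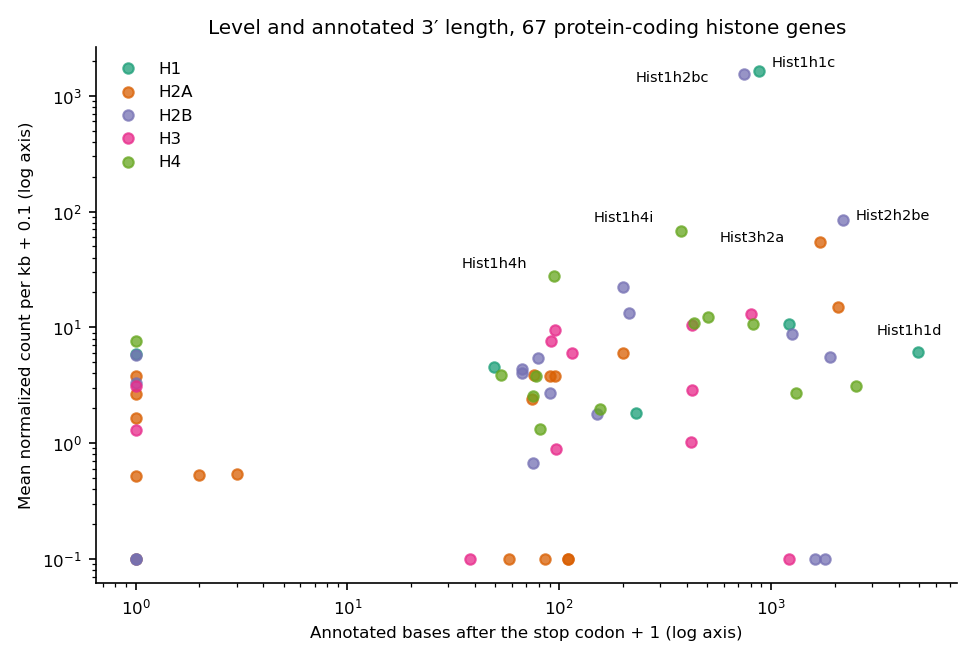
Each point is 1 of 67 protein-coding histone genes, with its annotated bases after the stop codon plus 1 on the x axis and its mean normalized count per kb over 9 mice plus 0.1 on the y axis, both log axes, colored by histone type. Hist1h1c and Hist1h2bc stand at 1622 and 1552 per kb, above all others, and genes at 0 in every mouse lie on the bottom line.

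A poly(A) signal (AATAAA or ATTAAA, on the transcript strand) lay in the last 40 bases of the transcript in 8 of the 18 members that run long past their stem-loop, in 2 of the 4 long ones without one, in 5 of the 27 short ones and in 1 of the other 18 protein-coding members. In the longest transcripts of other protein-coding genes the share was 70.1%. Hist1h2bc, a leading member, had no such signal there. The signals of other leading members are shown with 10 bases on either side and the signal in capitals.
Hist1h1c, chr13:23740332-23740357, plus strand: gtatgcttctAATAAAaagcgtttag
Hist2h2be, chr3:96223707-96223732, plus strand: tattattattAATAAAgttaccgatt
Hist3h2a, chr11:58956787-58956812, plus strand: gtatatgcccAATAAAataagagtac
Hist1h4i, chr13:22040641-22040666, minus strand: ttctgtttacATTAAAagtattctat
Hist1h2bc was annotated differently. Its transcript has 2 exons, at 23684199 to 23684621 and 23692176 to 23692908 of chromosome 13 on the plus strand, and the first exon ends 9 bases past the stop codon. The intron of 7554 bases thus begins before the stretch where 9 other H2B transcripts carry the stem-loop, and the whole 733 bases of the second exon are 3′ UTR. The intron was not searched, so a stem-loop in it would not be seen, and whether the gene lacks one is not known.

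Promoters were read from RefSeq windows of GRCm38.p6, 250 bases before to 50 after the start, which 62 of the members matched; Hist1h2bc, Hist1h3f, Hist2h4, Hist2h2be, Hist3h2bb-ps, Hist1h3a and Hist1h2aj had none. Searched on both strands, CCAAT was present in every window of the H1, H2A, H2B and H3 genes and in 3 of 12 H4 windows, against 37.4% of all 32817 windows. AAACACA, known as the H1 box, was in 5 of 6 H1 windows and in 7.19% of all windows. The octamer ATTTGCAT, which OCT1 binds, was in 7 of 18 H2A and 6 of 16 H2B windows, in 0 of those for H1, H3 and H4, and in 1.74% of all windows. H2A and H2B genes often lie head to head, so that their windows overlap and share matches. Hist1h2ac and Hist1h2bc are such a pair, and the bases between their start sites are shown on the strand of Hist1h2bc, followed by those before Hist1h1c, with matches in capitals. The matches shown do not overlap.
Hist1h2ac-Hist1h2bc, chr13:23683960-23684198, plus strand: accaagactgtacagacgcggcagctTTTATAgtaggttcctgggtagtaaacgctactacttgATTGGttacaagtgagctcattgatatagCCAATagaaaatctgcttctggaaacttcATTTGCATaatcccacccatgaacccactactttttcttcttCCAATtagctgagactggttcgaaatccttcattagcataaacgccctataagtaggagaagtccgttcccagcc
Hist1h1c, chr13:23738557-23738806, plus strand: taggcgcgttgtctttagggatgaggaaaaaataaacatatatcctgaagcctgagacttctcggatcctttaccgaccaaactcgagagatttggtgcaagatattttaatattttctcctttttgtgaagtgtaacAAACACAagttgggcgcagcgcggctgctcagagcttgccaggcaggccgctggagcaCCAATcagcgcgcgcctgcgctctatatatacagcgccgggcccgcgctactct
The interval between Hist1h2ac and Hist1h2bc holds an octamer, CCAAT in either direction, and TATAAA (printed as TTTATA) on the side of Hist1h2ac only. Only these exact letters were searched, so variants of the motifs near either start site would not be seen.

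Libraries held 13523500 to 17885918 reads on genes, and all 4 p16cis/cis libraries were shallower than the 5 others. Mitochondrial transcripts took 8.74% to 15.6% of reads in ApcMin/+ mice but 19.3% to 29.8% in the p16cis/cis mice, without overlap, and their part in the results below was not tested beyond a fit with this share as a covariate. The label of colonic mucosa held for its epithelium: all 11 epithelium markers passed the filter, and Epcam, which encodes a surface protein of epithelial cells, lay between 27841 and 38616 normalized counts in ApcMin/+ mice and between 24444 and 26913 in p16cis/cis mice. The sum over this list was 396281 to 680527 and 397849 to 441917, and Slc26a3, an anion exchanger of mature colonocytes, was the 1 of 11 markers that fell (log2 fold change -1.23, adjusted p = 0.0085). Other cell types were present at low levels, with sums over 12 immune markers of 154 to 1936 and 343 to 573 normalized counts in the respective groups, and over 9 stroma, muscle and vessel markers of 238 to 701 and 164 to 345. The macrophage marker Adgre1 was at 0 in all 4 p16cis/cis mice, and no marker was at 0 in all 9. Beside the 8.75% of all genes tested that fell at an adjusted p under 0.05, 2 of the 11 immune markers tested fell, Jchain of plasma cells (log2 fold change -2.65, adjusted p = 0.0175) and Lyz2 of macrophages (-1.56, adjusted p = 0.00745). Of the 8 stroma markers tested Col3a1 fell (-2.92, adjusted p = 0.0414), and of the 3 germinal-center B cell markers tested Cr2 fell (-3.42, adjusted p = 0.0308), with sums over all 5 of 131 to 457 and 152 to 215.

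Histone genes took 0.0264% ± 0.00731 (SD, n = 5) of the reads of ApcMin/+ libraries and 0.0249% ± 0.00587 (SD, n = 4) of those of p16cis/cis libraries, or 2868 to 5864 reads per library. Reads were seen for 58 members in at least 1 mouse and for 21 in all 9 mice, while 11 were at 0 throughout, which allows up to 3 reads per library, or 2.85 to 4.79 normalized counts. Of those 11, 9 shared more than 85% of their 50-base windows with other annotated genes, so reads that fit several copies may have gone elsewhere or been lost. Expression was concentrated in a few genes. Hist1h1c (ENSMUSG00000036181.2, chr13:23738808-23740367, plus strand, 1 exon), which encodes the H1 variant H1.2, made up 50.4% of the summed level. The H2B gene Hist1h2bc (ENSMUSG00000018102.5) made up 35.7%. Then came Hist2h2be (ENSMUSG00000068854.7, chr3:96221119-96223738, plus strand), also an H2B gene, with 4.41%, and the H2A gene Hist3h2a (ENSMUSG00000078851.4, chr11:58954685-58956830, plus strand) with 2.31%. By position, 31 members between 23531050 and 23934851 of chromosome 13 held 90.9% of the level, and 24 members of the same cluster between 21715763 and 22043676 held 1.66%, of which Hist1h4i was the highest. The 10 Hist2 genes on chromosome 3 held 4.75%, the 3 Hist3 genes on chromosome 11 2.49%, and Hist4h4 on chromosome 6 0.171%.

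**Figure D2:**
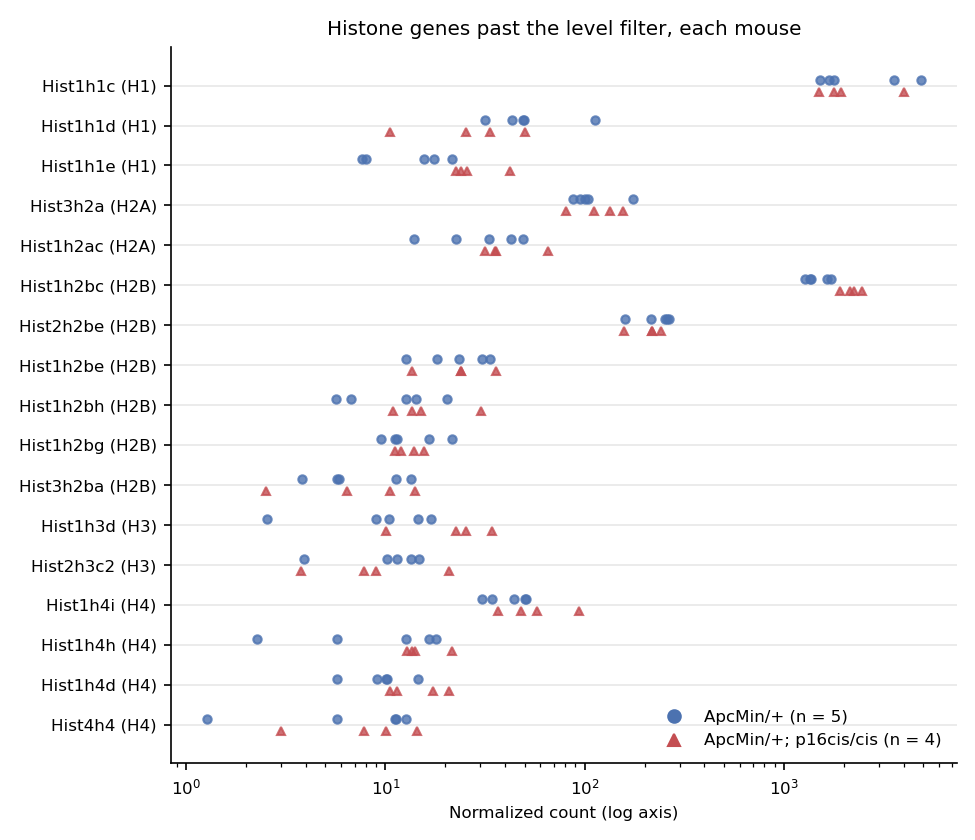
Normalized counts of the 17 histone genes past the level filter on a log axis, 1 point per mouse (circles ApcMin/+, triangles ApcMin/+; p16cis/cis). Hist1h1c and Hist1h2bc lie at 1275 or above in every mouse, and only Hist1h2bc and Hist1h1e have groups that do not overlap.

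Differences between genotypes were tested in the 17 members with at least 10 normalized counts in at least 4 mice. None was called at an adjusted p under 0.05 with a fold change over 2, where 3.48% of all 14410 genes were called (1.83% higher and 1.64% lower in p16cis/cis mice). At an adjusted p under 0.05 without the fold threshold, 1 of 17 passed, Hist1h2bc, against 16.9% of all genes tested (8.14% higher and 8.75% lower). At an unadjusted p under 0.05 the counts were 2 of 17 for limma, 3 of 17 for edgeR and 5 of 58 for DESeq2, against 33.2%, 33.4% and 18.3% of all genes in the respective fits, and neither count test called a member either (DESeq2 called 2.42% of 29946 genes). The log2 fold changes (p16cis/cis minus ApcMin/+) ranged from -0.97 to 1.12, with 11 of 17 above 0, against 49.6% of all genes, and a median of 0.15, against -0.0041 over all genes. Groups did not overlap for 2 of the 17, Hist1h2bc and Hist1h1e, both higher in p16cis/cis mice, and for 0 in the other direction, against 7.24% and 8.95% of all genes. The spread between mice was wide, with a median residual SD of 0.62 on the log2 scale for the members and 0.26 for all genes tested. In bulk tissue, fewer cells with a transcript and less of it per cell cannot be told apart.

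Hist1h2bc was the histone gene that rose. It stood at 1643, 1275, 1357, 1724 and 1364 normalized counts in ApcMin/+ replicates 1 to 5 and at 1908, 2243, 2164 and 2472 in p16cis/cis replicates 1 to 4. Every p16cis/cis mouse was above every ApcMin/+ mouse. The fitted log2 fold change was 0.58 (SE 0.12, adjusted p = 0.00914), a 1.5-fold rise. Its divergent neighbor Hist1h2ac, an H2A gene, was far lower, at 49.1, 33.3, 42.9, 14.0 and 22.7 against 35.4, 65.4, 31.6 and 36.0. The groups overlapped for Hist1h2ac, and its log2 fold change of 0.43 (SE 0.38, adjusted p = 0.465) did not pass. Of the windows of Hist1h2bc, 30.6% are shared with other genes, 220 in number, and 23.1% with Hist1h2bg, the most for any of them. The 2 genes that encode the same protein, Hist1h2be and Hist1h2bg, were at 23.98 and 13.7 normalized counts on average and did not pass. When the mitochondrial share was added to the fit, the log2 fold change of Hist1h2bc was 0.28 (adjusted p = 0.874). In that fit 0 of all 14410 genes passed an adjusted p under 0.05 (798 at an unadjusted p under 0.05). The share does not overlap between the genotypes, so the parts of share and genotype cannot be told apart.

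The H1 genes did not move together. Hist1h1c was at 1798, 1695, 3573, 4907 and 1528 in ApcMin/+ mice and 1946, 1499, 1796 and 4026 in the p16cis/cis mice. High values came from 2 ApcMin/+ mice and 1 p16cis/cis mouse and the groups overlapped. The log2 fold change of -0.17 (SE 0.36, adjusted p = 0.782) was smaller than the spread, and the residual SD of 0.70 was above that of 89.8% of genes tested. Hist1h1e, which encodes H1.4, was at 15.6, 7.61, 17.6, 21.6 and 7.95 against 22.7, 23.9, 25.5 and 42.3. Its groups did not overlap, but the log2 fold change of 1.04 (SE 0.39) missed the threshold (adjusted p = 0.0856). Without ApcMin/+ replicate 4 it was 1.21 and passed (adjusted p = 0.0372). In that fit more of all genes passed, 1691 up and 1797 down, against 1173 and 1261 with all mice. The model of Hist1h1e overlaps that of Hist1h2be, so their reads may not be separated. Hist1h1d, which encodes H1.3, was at 49.1, 49.4, 112, 31.8 and 43.1 against 25.3, 33.5, 10.5 and 50.1. Here the values ran lower in the p16cis/cis mice, with overlap, and the log2 fold change of -0.97 (SE 0.45) did not pass (adjusted p = 0.153). The testis-specific Hist1h1t and the S phase genes Hist1h1a and Hist1h1b were below the filter, at 9.02 normalized counts or less in every mouse.

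Among H2A and H2B genes, Hist3h2a was at 174, 105, 94.6, 100.4 and 87.4 against 80.8, 134, 156 and 111. Hist2h2be was at 215, 266, 260.5, 160.2 and 252 against 242, 219, 158 and 218. In both the groups overlapped along most of their range, and the log2 fold changes of 0.11 (SE 0.25, adjusted p = 0.798) and -0.14 (SE 0.19, adjusted p = 0.652) were within the spread. Of the windows of Hist3h2a, 31.5% are shared with other genes, Trim17 above all, whereas Hist2h2be shared 0%. Hist1h2bg, the third H2B gene per kb, lay between 9.51 and 21.6 in ApcMin/+ mice and between 11.2 and 15.7 in the others, with a log2 fold change of -0.038 (SE 0.35, adjusted p = 0.956). Hist1h2ae, the third H2A gene per kb, was below the filter at 0 to 6.66 and 3.01 to 6.27 normalized counts.

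Genes for H3 and H4 were expressed at low levels, the highest being Hist1h4i (ENSMUSG00000060639.5, chr13:22040636-22041362, minus strand), an H4 gene. It stood at 50.2, 34.2, 50.7, 30.5 and 44.3 against 36.6, 57.4, 48.1 and 94.0. The groups overlapped, and the log2 fold change of 0.42 (SE 0.30) did not pass (adjusted p = 0.348). Hist1h3d had the highest log2 fold change of the 17, 1.12 (SE 0.52, adjusted p = 0.157), from 8.93, 10.5, 14.6, 2.54 and 17.0 against 10.1, 25.5, 22.5 and 34.5. All p16cis/cis mice but replicate 1 were above the ApcMin/+ mice. Hist1h4h reached 0.69 (SE 0.53, adjusted p = 0.398) with 2.27 to 17.9 against 12.8 to 21.5 normalized counts, and Hist2h3c2 was at -0.15 (SE 0.52, adjusted p = 0.868) with 3.90 to 14.8 against 3.79 to 20.7. Hist1h4c and Hist1h3g were below the filter, at 6.66 to 17.9 against 3.01 to 9.40, and at 1.12 to 5.08 against 1.503 to 14.4. All 13 H4 genes encode 1 protein, and 44 members fall into 7 groups of identical proteins, so that the split of reads between such copies is uncertain.

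**Figure D3:**
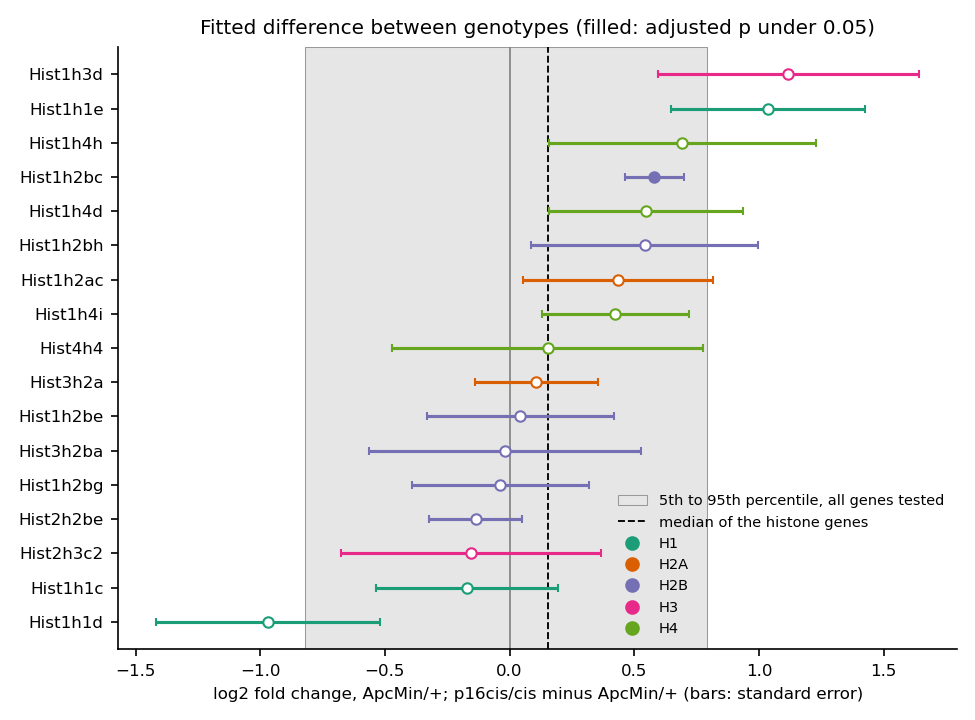
Log2 fold change (p16cis/cis minus ApcMin/+) of the 17 tested histone genes with its standard error, colored by histone type, filled where the adjusted p is under 0.05. The dashed line is the median of the 17 (0.15) and the gray band the 5th to 95th percentile of all genes tested (-0.82 to 0.79); only Hist1h2bc is filled.

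Summed over all members of a type, H2B was at 1771 ± 156 normalized counts for ApcMin/+ and 2487 ± 239 for p16cis/cis mice (SD, n = 5 and 4). The ranges of 1595 to 1938 and 2224 to 2782 did not overlap, and Hist1h2bc made up 85.9% of that sum. For H3 the sums were 33.5 ± 3.98 and 59.8 ± 19.0, and 1 p16cis/cis mouse, at 36.6, was within the range of 27.9 to 38.6 of the others. H1 was at 2778 ± 1497 and 2388 ± 1174, H2A at 154 ± 43.0 and 184 ± 42.2, and H4 at 104 ± 27.5 and 127 ± 28.1. For H1, H2A and H4 the groups overlapped and the means differed by less than the SD. Over all 69 genes the sums were 4840 ± 1563 and 5246 ± 1373, and without Hist1h1c and Hist1h2bc, left out after their values were seen, 667 ± 106 and 732 ± 102.

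By annotated 3′ end, the 27 genes that stop near the stem-loop summed to 63.6, 47.5, 63.4, 67.4 and 51.1 normalized counts in ApcMin/+ mice and 84.6, 107, 82.6 and 102 in the p16cis/cis mice. All 4 p16cis/cis mice were above all 5 ApcMin/+ mice, at 1.6 times their mean. The same held with TMM scaling and with size factors taken without mitochondrial genes. Subsets of these mice, such as females only, must then show it too and add nothing. The mitochondrial share and depth separate the genotypes too. These sums rest on 270 and 254 reads over the 5 and 4 libraries, and the grouping was made with the values known, so that no test is given. The 22 genes with a long end summed to 4766 ± 1551 and 5124 ± 1377 with overlapping groups. In the 20 other genes the sums were 10.5 to 21.6 and 14.1 to 36.7, with 1 p16cis/cis mouse inside the range of the ApcMin/+ mice. With reads of all 58 members in the DESeq2 fit, 44 had a log2 fold change above 0, against 43.6% of all genes with a read. The median was 0.58 against -0.12. At an adjusted p under 0.05, 1 member passed, and 32 were given none for low counts. Of all 29946 genes in that fit 10.9% passed, and 12783 were given none.

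**Figure D4:**
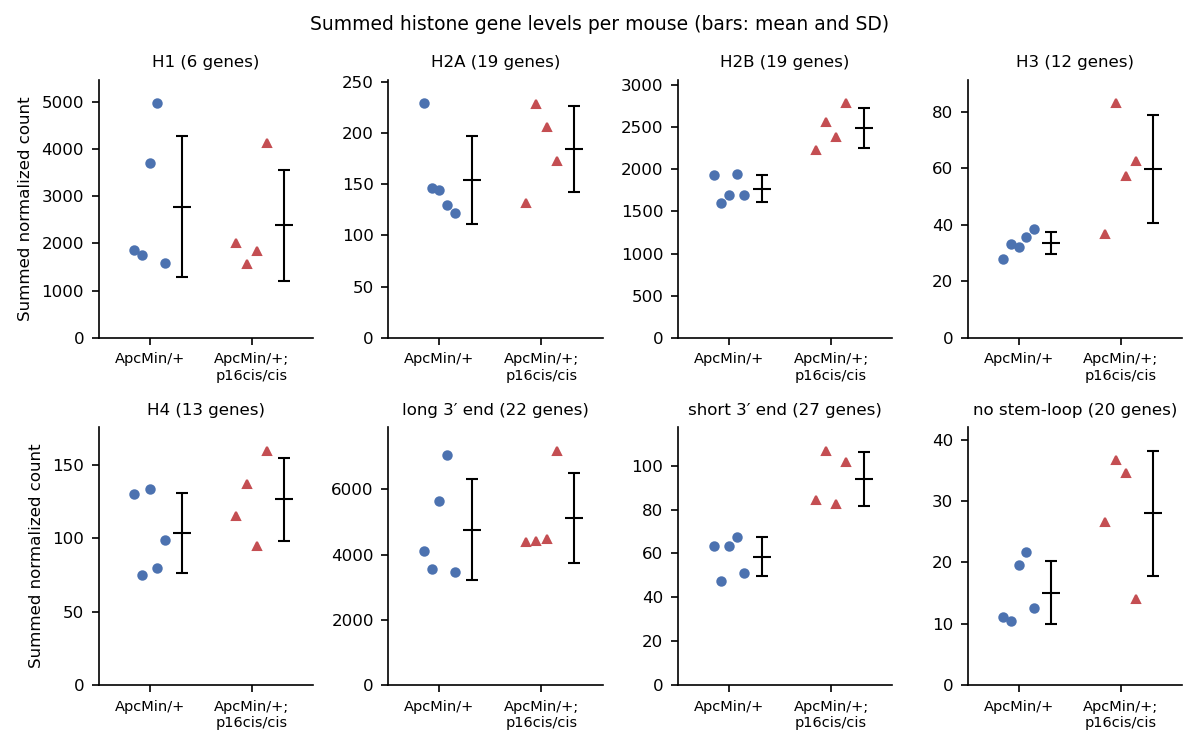
Summed normalized counts per mouse for each histone type and for 3 groups of genes by annotated 3′ end (circles ApcMin/+, triangles ApcMin/+; p16cis/cis, bars mean and SD, axes from 0). The last group is the 20 genes whose annotated transcript has neither a stem-loop nor a long end, most of them with models that stop at or near the stop codon. H2B and the 27 genes with a short end show no overlap between genotypes, while H1 spans 1570 to 4968.

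Of 23 genes for factors that make or degrade histone mRNA, 3 rose, none fell and 20 did not pass, where 8.14% of all genes tested rose and 8.75% fell. Npat, the transcriptional coactivator of the clusters, was at 386, 428, 383, 325 and 530.1 against 434, 343, 386 and 346 (log2 fold change -0.11, SE 0.15, adjusted p = 0.648). Slbp was at 728, 847, 684, 419 and 595 against 648, 487, 544 and 489 (-0.24, SE 0.18, adjusted p = 0.386). Casp8ap2, which encodes FLASH and takes part in 3′ end cleavage, was at 327, 337, 278, 242 and 388 against 234, 217, 251 and 144, and 1 p16cis/cis mouse was above the lowest ApcMin/+ mouse. Its log2 fold change was -0.58 (SE 0.19, adjusted p = 0.0552), and it passed with DESeq2 (adjusted p = 0.0295), without ApcMin/+ replicate 4 (0.0212) and without p16cis/cis replicate 3 (0.0478). Without ApcMin/+ replicate 4, more of all genes passed than with all mice. The genes that rose were Srrt (0.38), Sympk (0.38) and Upf1 (0.32), which encode the cap-associated protein ARS2, the cleavage scaffold symplekin and a helicase of histone mRNA decay. The median over the 23 genes was 0.029.

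Replication-independent histone genes are polyadenylated and made outside S phase as well. The list of 11 used here also took in genes of both kinds, H2afx among them. Some of the list were more abundant per kb than any member. H1f0, the H1 of differentiated cells, was at 3755 normalized counts per kb and H3f3b, an H3.3 gene, at 2368, whereas Hist1h1c was at 1622. Over all 11 genes the levels per kb summed to 9972. Of 11 genes tested 3 rose, none fell, against 8.14% and 8.75% of all genes tested, and the median log2 fold change was 0.33, against -0.0041. H2afx, whose product H2A.X marks DNA breaks, was at 954, 1025, 1215, 997 and 944 against 1725, 1656, 1531 and 1679. The groups were well apart, with a log2 fold change of 0.69 (SE 0.10, adjusted p = 0.0026), which did not pass with the mitochondrial share as a covariate (0.89, adjusted p = 0.848). H2afv (0.74), a gene of H2A.Z, and H2afy (0.33), a gene of macroH2A, rose as well. H2afz, the other H2A.Z gene, was at 134 to 235 against 174 to 215 (0.070, SE 0.18, adjusted p = 0.822). H3f3a was at 631 to 787 against 623 to 936 (0.13, SE 0.14, adjusted p = 0.555), and H3f3b at 5831 to 9614 against 5117 to 7328 (-0.32, SE 0.17, adjusted p = 0.194).

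Of 21 histone chaperone and assembly genes, 3 rose, 2 fell and 16 did not pass, against 8.14% higher and 8.75% lower among all genes tested, with a median of -0.17. Cabin1 (0.55), a subunit of the HIRA complex, Hjurp (0.53), the chaperone of CENP-A, and Daxx (0.48), a chaperone of H3.3, rose. Hat1 (-0.42), which acetylates new H4, and Anp32e (-0.41), which removes H2A.Z, fell. Among 28 genes of S phase and proliferation, 4 rose and none fell, against the same 8.14% and 8.75%, and the median was 0.12. Mki67, a proliferation marker, was at 1856, 2205, 2376, 2151 and 3072 against 5251, 5195, 3240 and 4057. Its groups did not overlap and the log2 fold change was 0.92 (SE 0.17, adjusted p = 0.00656). However, Mki67 did not pass with females only (0.78, adjusted p = 0.0922) or with the mitochondrial share as a covariate (0.84, adjusted p = 0.848). Gins2 (0.55) of the replicative helicase, and Aurkb (0.51) and Birc5 (0.46) of the chromosomal passenger complex, rose with it. Pcna, the sliding clamp of DNA polymerase, was at 884, 1025, 961, 568 and 807 against 644, 467, 831 and 545. Its log2 fold change of -0.45 (SE 0.19) did not pass (adjusted p = 0.125), but did without ApcMin/+ replicate 4 (-0.59, adjusted p = 0.0214), where more of all genes passed. Top2a, a topoisomerase of S phase and mitosis, was at 1411 to 2335 against 1859 to 2824 (0.16, SE 0.17, adjusted p = 0.564), and the 6 Mcm helicase genes, between -0.51 and 0.12, did not pass.

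**Figure D5:**
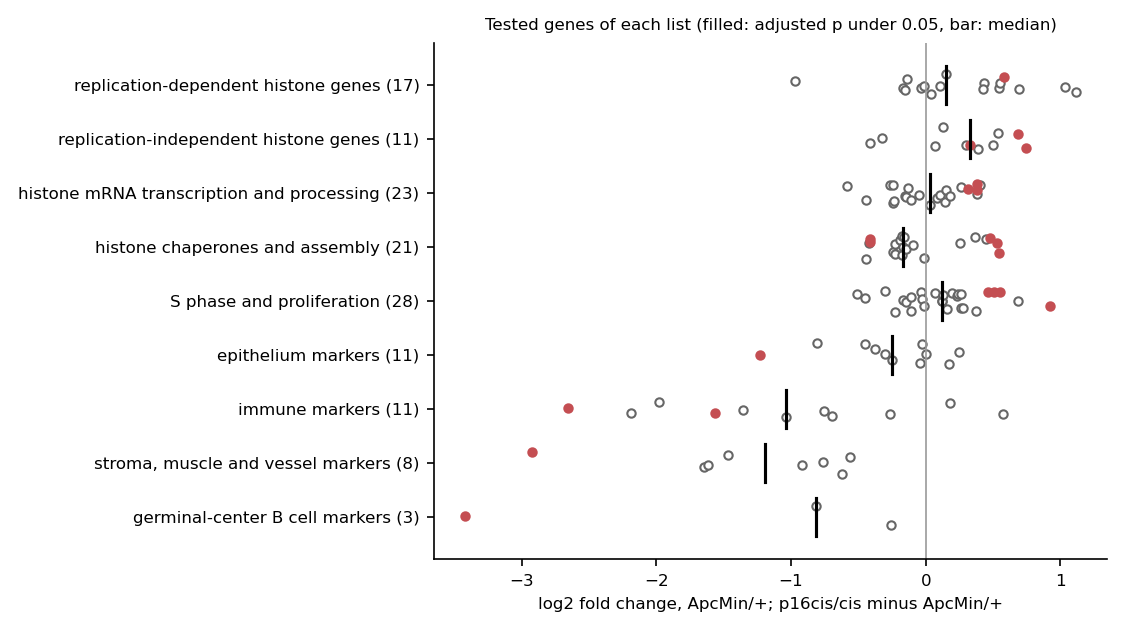
Log2 fold change (p16cis/cis minus ApcMin/+) of each tested gene by list, with the number tested in brackets, filled points at an adjusted p under 0.05 and a bar at the median. The replication-dependent histone genes have a median of 0.15 with 1 filled point. The list of replication-independent ones, which includes genes of both kinds, has 0.33 with 3, and the immune and stroma lists lie mostly below 0.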

How the data were processed

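RNA-seq of colonic mucosa of 9 mice was analysed from 1 table. The authors deposited normalized counts, a signal in which gene counts are divided by a size factor of each library, made with BOWTIE2, RSEM and DESeq2 per their methods; versions, genome build and annotation are not given in the sources used here. Dividing each value by the value of 1 read of its column gave whole reads to within 0.01 for 100% of values. Genes were matched by Ensembl identifier to GENCODE M21 (GRCm38), which held all 69 members; it swaps the symbols of Hist2h2aa1 and Hist2h2aa2, both at 0. Lengths are unions of annotated exons.

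For the main test, log2(normalized count + 1) was fitted on genotype alone by limma 3.58.1 under R 4.3.3, two-sided and with a mean-variance trend. It covered the 14410 genes that reached 10 normalized counts in 4 or more mice, with Benjamini-Hochberg adjustment over all of them. Fold changes are on this scale and understate changes of low genes. Adjusted p-values in the text are from this fit unless another tool is named. A call needed an adjusted p under 0.05 and a fold over 2. As alternatives, edgeR 4.0.16 (quasi-likelihood) called 252 genes up and 265 down and DESeq2 1.42.0 (Wald) 296 up and 430 down on the recovered reads, against 264 and 237 for limma. The procedure was tested on simulated data.

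Members, gene lists and tests were chosen with earlier results of these data known. Genes named are, per histone type, the 3 members with the highest level per kb, the members called, the 3 largest log2 fold changes in each direction, 10 fixed genes of the related lists, and 2 to 4 examples per list; Hist1h1a, Hist1h1b, Hist1h1t, Hist1h2be and others beyond this rule were chosen after their values were seen. Mice are separate animals. The labels do not say what a replicate number shares between genotypes, and the numbers did not pair the mice by the correlation of their deviations. Floors of 3 reads cover counting error only. Other data types of the study were not analysed here.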

Additional observations from a re-analysis of the deposited data

Results flagged for a closer look

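A mouse far from the rest of its genotype was looked for in 70 groups of 4 or 5 mice, where chance gives about 1 in 20, and 7 were found. ApcMin/+ replicate 1 was high for Hist3h2a, at 174 normalized counts against 87.4 to 105 in the other 4, and with it for the summed level of H2A genes, at 229 against 121 to 146. ApcMin/+ replicate 3 was high for Hist1h1d, at 112 against 31.8 to 49.4. ApcMin/+; p16cis/cis replicate 4 was high for Hist1h1e, at 42.3 against 22.7 to 25.5, and for the summed level of H1 genes, at 4128 against 1570 to 2005. Replicate 2 of that genotype was high for Hist1h2ac, at 65.4 against 31.6 to 36.0, and replicate 1 for Hist1h4h, at 21.5 against 12.8 to 14.1.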

How the results depend on the processing

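Hist1h2bc kept its direction in 20 alternatives and passed an adjusted p under 0.05 in 19 of them, with log2 fold changes of 0.28 to 0.65. Its groups did not overlap, so the alternatives that only left out mice had to keep the direction and add nothing on it. With the mitochondrial share as a covariate, 0 members passed. Leaving out 1 mouse at a time gave 0 to 1 members called and 1 to 2 at an adjusted p under 0.05. The higher counts were Hist1h1e without ApcMin/+ replicate 4. In that fit 323 of 14410 genes were called higher and 432 lower, against 264 and 237 with all mice. At an adjusted p under 0.05, 1691 rose and 1797 fell, against 1173 and 1261 with all mice. Medians without 1 mouse were 0.044 to 0.49, the highest without ApcMin/+; p16cis/cis replicate 3. The median was 0.58 with DESeq2 and 0.41 without a filter (all genes -0.12 in both), where many members near the floor enter, and -0.0011 with sex and -0.064 with the mitochondrial share as covariates. Bonferroni adjustment gave 0 members. Summed differences (normalized counts) without 1 mouse ranged from -970 to 158 for H1, 15.7 to 48.9 for H2A, 617 to 804 for H2B, 18.6 to 34.1 for H3, 12.0 to 33.7 for H4, 31.1 to 39.2 for short and -331 to 931 for long 3′ ends; counting only the highest of identical-protein copies left the H3 groups without overlap. Of the named genes' 435 values under alternatives, 403 kept direction and side, 6 gained and 4 lost the threshold, and 22 turned sign, none of them past it in either fit. With the mitochondrial share these were Hist1h1c (0.57), Hist1h2ac (-0.30), Hist1h2bg (0.032), Hist1h4i (-0.26), Hist3h2a (-0.62), Npat (0.019), Slbp (0.087) and Pcna (0.087), with females only Hist1h1c (0.42), H3f3b (0.0016) and Top2a (-0.0082), with sex Hist3h2a (-0.053), and with the replicate block Hist1h2bg (0.12) and H2afz (-0.050). Without 1 mouse each, values ranged from -0.47 to 0.086 for Hist1h1c (highest without ApcMin/+ replicate 4), -0.15 to 0.12 for Hist1h2bg, -0.54 to 0.19 for Hist2h3c2, -0.030 to 0.28 for Hist3h2a and -0.050 to 0.15 for H2afz. Mki67 lost the threshold with females only (0.78, adjusted p = 0.0922, limma) and with the mitochondrial share (0.84, adjusted p = 0.848), as did H2afx with the latter (0.89, adjusted p = 0.848), and H3f3b passed with the replicate block (-0.42, adjusted p = 0.0367). The cause was not tested. The replicate block, which leaves out ApcMin/+ replicate 5 for want of a partner, gave 0 members called, 1 at an adjusted p under 0.05 and a median of 0.29; same-numbered mice correlated at -0.18 to 0.14, and 4 of 8 mice correlated best with their own number. The filter on low values left 17 of the 69 members in the test, against 58 without it.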
